A study of Mus musculus with 4 samples.

Results

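The miR-29 and miR-26 families were followed in mouse hippocampus through 5 array probes, mmu-miR-29a, mmu-miR-29b, mmu-miR-29c, mmu-miR-26a and mmu-miR-26b. The probes were chosen by these exact names, and they were 5 of 705 mouse miRNA probes on the array. Each was printed as 3 spots, and all 60 of their spot readings on the 4 arrays carried the flag of a usable spot, against 3846 of 8460 readings over all miRNA spots. All 5 entered the test, which covered 316 probes.

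The animals were wild-type C57BL/6J mice, an inbred laboratory strain, and all were trained in the Morris water maze, a task in which a mouse learns to find a hidden platform by its position in the room. Good performers were compared with poor performers, with hippocampus taken right after training in both groups. Each group had 4 mice and 2 arrays. The sources used here do not tell which mice contributed to which array. The p-values therefore reflect array-to-array spread alone, and that spread may be technical. Neither age nor sex is given in the sources used here, and no untrained mice were analysed here, so the comparison is between performers and not with a resting state.

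A miRNA is a short RNA that guides a silencing complex to messenger RNAs, mainly through pairing of its seed, the bases from position 2 to 8. In the brain both families have been described as enriched in astrocytes and other glia relative to neurons in culture, although neurons also make them. The miR-29 family represses collagens and other matrix genes and the DNA methyltransferases Dnmt3a and Dnmt3b, and in mouse neurons it accumulates with maturation and restrains pro-apoptotic BH3-only genes. The miR-26 family lies within the Ctdsp genes, which encode small phosphatases that act with the REST complex to keep neuronal genes silent outside neurons, and in rat hippocampal neurons miR-26a has been linked to the persistence of long-term potentiation.

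The mature sequences are shown because the members of each family differ by few bases, which bears on what each probe measures. All 5 array names were matched to RefSeq entries of the mouse assembly GRCm38.p6, taking the older name without an arm as the guide strand. The sequences run 5′ to 3′ with the seed in capitals.
miR-29a: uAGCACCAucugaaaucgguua
miR-29b: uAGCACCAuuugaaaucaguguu
miR-29c: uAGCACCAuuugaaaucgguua
miR-26a: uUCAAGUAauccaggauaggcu
miR-26b: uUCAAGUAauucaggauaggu

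The 3 miR-29 sequences shared one seed and the 2 miR-26 sequences another. Among 1674 distinct mature mouse sequences in the RefSeq table the miR-29 seed occurred in 3 (0.179%) and the miR-26 seed in 2 (0.119%), which were the family members themselves. Counting positions from 1 at the 5′ end of the first-named miRNA, miR-29a differed from miR-29c by the single substitution C10U, with 21 of 22 bases the same. miR-29b and miR-29c shared their first 17 bases and then differed by A18G, G21U and U22A over the 22 positions compared. miR-26a and miR-26b differed by C11U and C21U over 21 positions, and miR-26a is 22 bases long where miR-26b is 21. Whether the probes separated such close sequences was not tested, so miR-29a and miR-29c in particular are reported as signals that may share RNA.

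miR-29b ended in AGUGUU, a hexamer that directs nuclear import of miR-29b in human cells. Searched on the RNA strand alone, this ending was found in 2 of the 1674 mature sequences (0.119%), miR-29b-3p and miR-92b-5p, and the hexamer occurred anywhere in 12 (0.717%). Neither miR-29a nor miR-29c ended in it.

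The 5 miRNAs come from 7 hairpin genes. Mature miR-29a (chr6:31062673-31062694, minus strand) and the copy of miR-29b from Mir29b-1 (chr6:31063025-31063047, minus strand) lie in neighbouring hairpins with 275 bases between them. The other copy of miR-29b, from Mir29b-2 (chr1:195037091-195037113, plus strand), and miR-29c (chr1:195037600-195037621, plus strand) lie in hairpins with 426 bases between them, both inside the span of the long non-coding gene A330023F24Rik. miR-26a has copies in Mir26a-1 (chr9:119031811-119031832, plus strand), inside Ctdspl, and in Mir26a-2 (chr10:126995543-126995564, plus strand), inside Ctdsp2. miR-26b (chr1:74394324-74394344, plus strand) lies inside Ctdsp1. Each of these genes runs on the same strand as the hairpin it contains. Both copies of miR-29b have the same mature sequence, as do both copies of miR-26a, so their probes cannot tell the loci apart.

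None of the 5 probes passed the threshold between good and poor performers (limma, Benjamini-Hochberg adjusted p under 0.05 over all tested probes). Over all 316 tested probes 16 passed (5.06%), 10 higher (3.16%) and 6 lower (1.9%) in good performers. At an unadjusted p under 0.05 stood 2 of the 5, miR-29a and miR-26a, against 20.9% of all tested probes. The mean was higher in good performers for all 5, against 45.9% of tested probes, although for 3 of the 5 with cyclic loess or in the authors' normalized table, 4 with the median over spots and 1 with scaling to the spike-in controls. The authors' table and the spike-in scaling also moved the median of all tested probes, to -0.08 and -0.11, so those counts include a shift common to all probes. In the reported setting 2 of the 5 had groups that did not overlap with good performers higher, against 23.1% (50.6% of tested probes did not overlap in either direction). The median log2 fold change was 0.01 over the 5 probes and -0.01 over all tested probes. With 2 arrays a group the smallest two-sided p of an exact permutation test is 0.333, and these tests rest on limma's model of the spread.

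No spot of the 5 probes was saturated: the brightest read 4593 and the highest value on the arrays was 65535. The plot of raw spots shows all 12 readings of each probe.

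**Figure D1:**
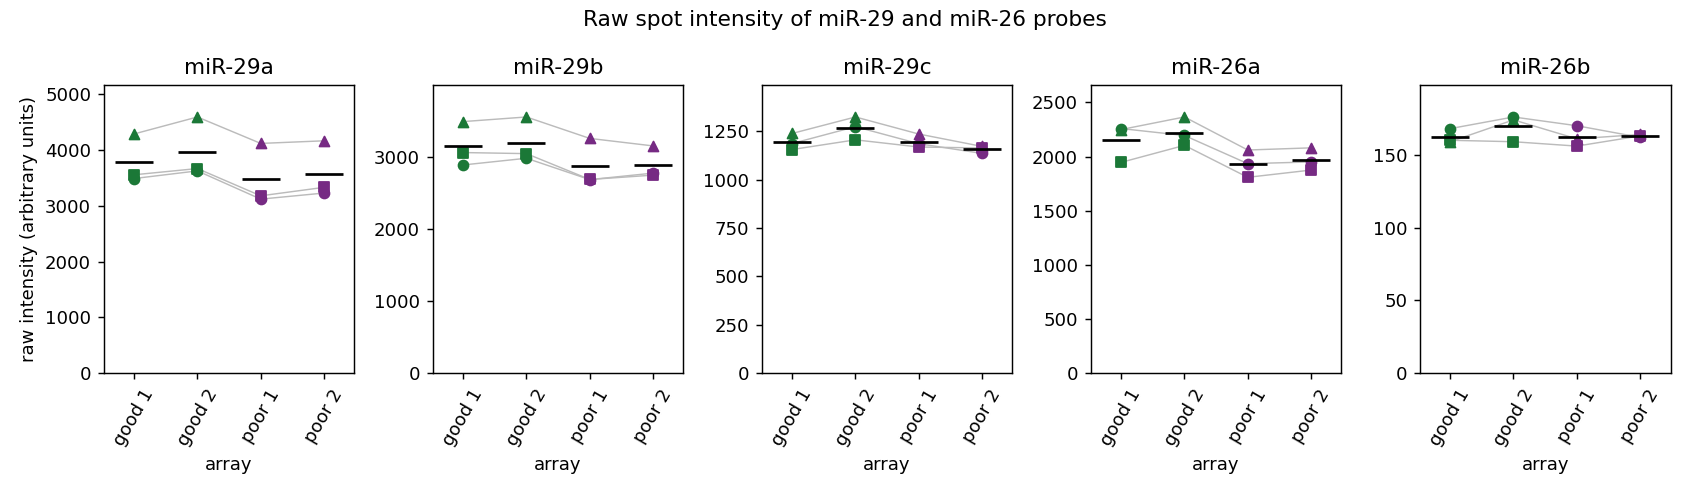
Raw spot intensity (vertical axis, arbitrary units, a separate scale in each panel, starting at 0) of the 5 probes on the 2 good-performer arrays (green) and the 2 poor-performer arrays (purple). Circles, squares and triangles are the 3 spots of a probe in file order, grey lines join the same spot across arrays and black bars are array means. All 3 spots of miR-29a, miR-29b and miR-26a were brighter on both good-performer arrays than on both poor-performer arrays, and none of miR-26b were. The mean over all miRNA spots was ordered the same way, at 995 and 1014 in good and 966 and 982 in poor performers. The share of all spots with this order was not computed.

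Among the miR-29 family, miR-29a had mean raw intensities of 3779 and 3963 in good and 3473 and 3576 in poor performers. Both good-performer arrays were brighter than both poor-performer arrays. After background correction and quantile normalization its log2 intensity was 11.88 and 11.90 in good and 11.77 and 11.81 in poor performers, and the groups still did not overlap. The group means were 11.89 ± 0.018 (SD, n = 2) and 11.79 ± 0.024 (SD, n = 2). The log2 fold change was 0.10 ± 0.03 (SE), or 1.07-fold with a 95% interval of 1.01 to 1.14, and it did not pass (limma adjusted p = 0.193).

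miR-29b had mean raw intensities of 3145 and 3192 in good and 2875 and 2890 in poor performers. Its raw ratio of good over poor was 1.10, as was that of miR-29a. After normalization its log2 intensity was 11.59 and 11.53 in good and 11.57 and 11.53 in poor performers. The groups then overlapped, and the log2 fold change was 0.01 ± 0.04 (SE), with a 95% interval of 0.935-fold to 1.08-fold (limma adjusted p = 0.934). Relative to the median tested probe, miR-29b ranged from -0.01 to 0.14 over 18 processing alternatives, the widest range of the 5 members. Its log2 fold change was 0.12 with each array scaled to its 75th percentile, 0.05 with cyclic loess, 0.14 without normalization and 0.15 in the authors' normalized table after each array was centred on its median. It passed in none of these, and the cause of the difference between settings was not tested.

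miR-29c had mean raw intensities of 1193 and 1267 in good and 1196 and 1156 in poor performers. The second good-performer array was the brightest, while the first was level with the first poor-performer array. Its log2 intensity was 10.24 and 10.24 in good and 10.28 and 10.18 in poor performers, so both good-performer arrays lay between the poor-performer arrays. The log2 fold change was 0.0039 ± 0.04 (SE), with a 95% interval of 0.923-fold to 1.09-fold (limma adjusted p = 0.985). The intervals of miR-29a and miR-29c overlapped, and the difference between their changes was not tested.

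In the miR-26 family, miR-26a had mean raw intensities of 2152 and 2222 in good and 1935 and 1969 in poor performers. Its good-performer arrays were the brighter pair, with a raw ratio of 1.12. The log2 intensity was 11.09 and 11.02 in good and 10.93 and 10.97 in poor performers, without overlap. Group means were 11.06 ± 0.050 (SD, n = 2) and 10.95 ± 0.026 (SD, n = 2). The log2 fold change of 0.11 ± 0.04 (SE), or 1.08-fold with a 95% interval of 1.002 to 1.16, was the largest of the 5 and did not pass (limma adjusted p = 0.227).

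miR-26b was the only member near background, with mean raw intensities of 162 and 170 in good and 162 and 163 in poor performers. These readings were 2.54 to 2.64 times the mean of the blank spots, whereas the other 4 members were at 18.1 to 61.6 times. Its log2 intensity was 7.36 and 7.37 in good and 7.38 and 7.35 in poor performers, and both good-performer arrays lay between the poor-performer arrays. The log2 fold change was 0.0016 ± 0.03 (SE), with a 95% interval of 0.946-fold to 1.06-fold (limma adjusted p = 1). A difference at this brightness is understated by the offset of 50 units added in the background correction. Intensities of different probes are not set against each other here, since labelling and hybridisation differ between sequences.

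**Figure D2:**
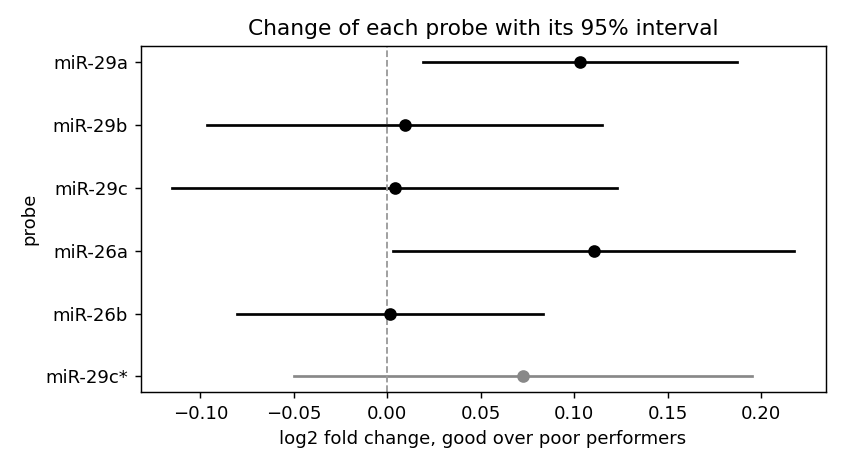
Log2 fold change of good over poor performers (horizontal axis) for the 5 probes (black) and for miR-29c* (grey), the opposite strand of the miR-29c hairpin. Points are limma estimates from 2 arrays a group and lines are unadjusted 95% intervals. The intervals of miR-29a and miR-26a lie above 0 without adjustment for the number of probes, the other 4 include 0, and no probe had an adjusted p under 0.05.

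A total of 4 probes were named for opposite strands of these hairpins. miR-29a*, miR-29b* and miR-26b* were flagged on all 12 of their readings each, with intensities of 0.937 to 1.05 times blank, so none was detected in either group. miR-29c*, the 5′ strand of the miR-29c hairpin, was usable on all 12 of its readings. The hairpin is shown because it was the only one for which an opposite strand was detected among the 4 probed, and its 2 mature strands are in capitals.
Mir29c: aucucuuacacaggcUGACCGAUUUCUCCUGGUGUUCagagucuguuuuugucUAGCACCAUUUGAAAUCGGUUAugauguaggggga

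miR-29c* had mean raw intensities of 113 and 124 in good and 106 and 114 in poor performers. Those intensities were 1.65 to 1.92 times blank, and the ranges of the raw values overlapped. Its log2 intensity was 6.83 and 6.91 in good and 6.77 and 6.83 in poor performers, a log2 fold change of 0.07 ± 0.04 (SE; limma adjusted p = 0.471). After normalization the 2 groups were separated by less than the spread within either, and the log2 fold change of the strand opposite, miR-29c, was 0.0039.

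**Figure D3:**
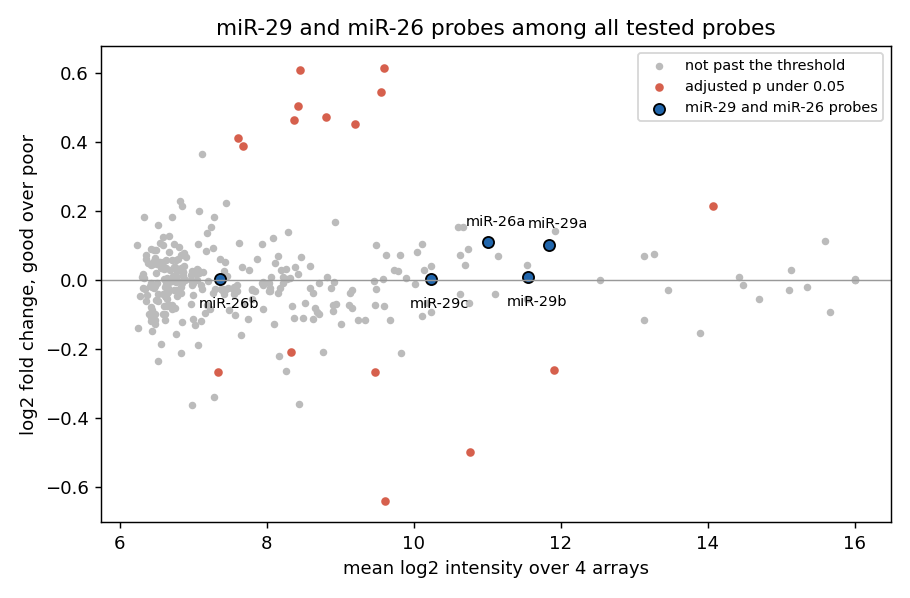
Log2 fold change of good over poor performers (vertical axis) against mean log2 intensity over the 4 arrays (horizontal axis) for the 316 tested probes, with the 16 past the threshold in red and the 5 miR-29 and miR-26 probes in blue. The 5 probes lie between 0.0016 and 0.11 on the vertical axis, inside the band of probes that did not pass.

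The likeness of other probes to each member was measured as the root mean square difference of log2 values, each centred on its own mean, over the 4 arrays. In the reported setting miR-26a and miR-29a stood at 0.034 from each other, and miR-29c and miR-26b were the closest pair of members at 0.021. Outside the 5, the nearest probes to miR-26a were miR-23b (0.015), which is also described as enriched in astrocytes, and miR-107 (0.016). Nearest to miR-29a were miR-669l (0.0098) and miR-132 (0.015), a neuronal miRNA driven by the transcription factor CREB. The nearest to miR-29b were miR-382 (0.0035) and miR-330* (0.0045), to miR-29c miR-370 (0.0076) and miR-342-5p (0.012), and to miR-26b miR-30b (0.0062) and miR-434-3p (0.0079). Such likeness was common on these arrays: 44 to 153 of the other tested probes lay within 0.05 of a member.

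Other miRNAs described as enriched in astrocytes were taken from the miR-23, miR-24 and miR-27 families, and none of the 5 tested passed (limma; none at an unadjusted p under 0.05). miR-23b had a log2 fold change of 0.10 (limma, not past the threshold), miR-24 of 0.04, miR-23a of 0.03, miR-27b of -0.07 and miR-27a of -0.07. Their median was 0.03, with 3 of 5 higher in good performers, and the mean log2 level of the list was 9.49 to 9.53 in good and 9.48 to 9.54 in poor performers. All 5 miR-29 and miR-26 probes had the higher mean in this setting, against 45.9% of tested probes, with a median change of 0.01. Their list levels were 10.41 to 10.43 in good and 10.37 to 10.39 in poor performers. The changes of miR-29b, miR-29c and miR-26b were 0.0093, 0.0039 and 0.0016, each smaller than its SE.

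Markers of other cells that a hippocampal sample holds were read on the same scale. Of 14 neuronal miRNAs 13 were tested and none passed (limma; 2 at an unadjusted p under 0.05). Their log2 fold changes ran from -0.07 to 0.14 with a median of -0.01. The mean was higher in good performers for 5 of the 13, against 45.9% of all tested probes. The 3 oligodendrocyte probes were all lower in good performers. Only miR-219, which promotes oligodendrocyte maturation, fell, by 0.27 on the log2 scale (limma adjusted p = 0.025), while miR-338-3p had -0.07 and miR-338-5p -0.09. The mean log2 level of these 3 was 8.0 to 8.03 in good and 8.12 to 8.19 in poor performers. Of 7 microglial and immune miRNAs 3 were tested, miR-146a, miR-146b and miR-150, with changes of -0.01 to 0.04. The 4 vascular probes, miR-126-3p, miR-126-5p, miR-143 and miR-145, lay between -0.09 and -0.02. Of the 7 choroid plexus and ependymal miRNAs 4 were tested, miR-204, miR-211, miR-34b-5p and miR-34c, with changes of -0.07 to 0.04. The erythroid miR-451 and miR-486 had -0.09 and -0.06. Apart from miR-219 none of these passed. The part of cell composition in the values of the miR-29 and miR-26 probes was not tested, and in whole tissue fewer cells of a type and less RNA per cell cannot be told apart. Whole-tissue arrays also cannot show in which cells the 5 miRNAs were made.

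The median raw brightness did not separate the arrays by group: the median tested probe read 162.5 and 165 in good and 160 and 164 in poor performers. The mean over all miRNA spots did separate them, at 995 and 1014 in good and 966 and 982 in poor performers. On average over the arrays of a group, without normalization the 5 spike-in controls, which are RNAs added to a sample and not made by the tissue, were 0.05 to 0.26 log2 units higher on the good-performer arrays, and the median tested probe was 0.03 higher. On that scale miR-26a was 0.16, miR-29a 0.14, miR-29b 0.14, miR-29c 0.06 and miR-26b 0.02 higher. With each array scaled to the mean of its spike-ins, the log2 fold change was 0.02 for miR-26a, -0.0043 for miR-29a, -0.0062 for miR-29b, -0.08 for miR-29c and -0.12 for miR-26b, while the median tested probe was at -0.11. This scaling shifts every probe of an array by the same amount, so miR-26a, miR-29a, miR-29b and miR-29c stayed above the median tested probe and miR-26b just below it.

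In the authors' deposited table of normalized intensity, miR-26a stood at 2238 and 2014 in good and 2010 and 2032 in poor performers, with a log2 ratio of 0.07. Only the first good-performer array stood apart. The ratios for the others in the authors' deposited table were 0.05 for miR-29b, 0.03 for miR-29a, -0.06 for miR-29c and -0.08 for miR-26b. The same log2 values were refitted with limma, where the median tested probe was at -0.08 and none of the 5 passed.

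**Figure D4:**
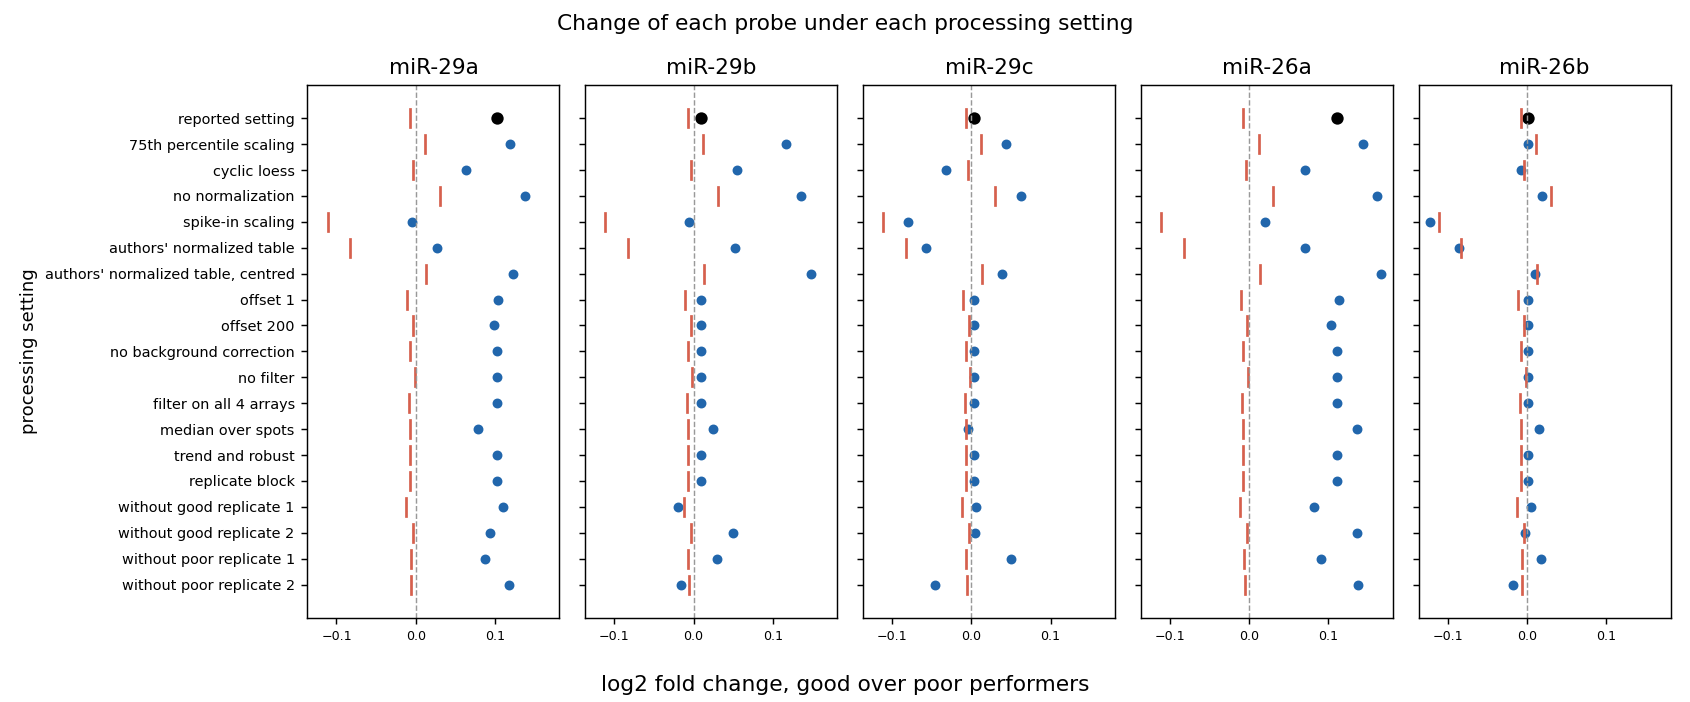
Log2 fold change of good over poor performers (horizontal axis) for each of the 5 probes under the reported setting (black) and 18 alternatives (blue), with the median of the tested probes under the same setting as a red bar. miR-26a stayed between 0.02 and 0.17 and miR-29a between -0.0043 and 0.14, miR-29b ranged from -0.02 to 0.15, and no probe passed under any setting.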

How the data were processed

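Total RNA from hippocampus (2.5 µg) was labelled with Cy5 by a chemical kit and enriched for small RNA, per the labels' protocols. The deposited raw intensity is unnormalized spot brightness, per the file headers, with a flag of 0 or -50 for each spot. A second table holds the authors' normalized intensity and, per the file headers, a log2 ratio of good over poor performers, and the series value table repeats its intensities. No source used here names the normalization, the scanner or the array design.

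In limma 3.58.1 with R 4.3.3, normexp (offset 50) corrected the raw intensity of every spot. The log2 values of miRNA spots were then quantile-normalized, and the mean of 3 spots gave a value per probe. A fold change on this scale understates changes of dim probes. Probes with at least 2 spots at flag 0 on both arrays of a group were tested (316 of 705). Groups were compared with lmFit and eBayes, in a two-sided test at an adjusted p threshold of 0.05 (Benjamini-Hochberg, all tested probes). The fit was tested on simulated data. Between 310 and 330 probes were detected per array, and blank spots averaged 63.0 to 64.4. The number of arrays limits precision.

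Differences between arrays of a group had 2.68 (good) and 2.34 (poor) times the variance that spot noise predicts, which copies of 1 array would not show, and each was counted once. Repeat hybridisations of the same RNA can also differ by more than spot noise, and separate animals are not shown by this. Members and lists were chosen with earlier results of these data known. The text names the 5 members, other strands of their hairpins, the 2 nearest probes to each, list members past the threshold and all members of lists with up to 5 tested probes. Alternatives covered scaling, background, filter, spot summary, variance model, a replicate block, the authors' table and leaving out each array.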

Additional observations from a re-analysis of the deposited data

How the results depend on the processing

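No miR-29 or miR-26 probe passed in any of the 18 alternatives (limma; lowest adjusted p 0.093, for miR-29a). Over all probes the 16 calls became 31 with spike-in scaling, 37 in the authors' normalized table, 6 with the median over spots, 7 with offset 1, 30 with a trended and robust variance model, and 0 to 0 without 1 array (41 to 57 at an unadjusted p under 0.05), a fit with fewer degrees of freedom that takes a single array to spread like the 2 of the opposite group. The 10 higher and 6 lower became 10 and 21 with spike-in scaling, 6 and 31 in the authors' table, 16 and 6 with 75th percentile scaling, 14 and 10 with cyclic loess, 17 and 13 with the trended and robust model, 11 and 4 in the centred authors' table, 12 and 3 without normalization, 6 and 1 with offset 1 and 5 and 1 with spot medians. The replicate block left 13 probes past the threshold and no member. The correlation of deviations between same-numbered arrays was 0.22, and 2 pairs are too few to treat the number as a pairing.

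The direction of miR-26a held in all 18. Reversed log2 fold changes with spike-in scaling were -0.0043 (miR-29a), -0.0062 (miR-29b), -0.0795 (miR-29c), -0.122 (miR-26b) and -0.0506 (miR-29c*). With cyclic loess they were -0.0314 (miR-29c) and -0.0070 (miR-26b), in the authors' normalized table -0.0576 (miR-29c) and -0.0852 (miR-26b), and with the median over spots -0.0044 (miR-29c). Without 1 array the ranges were 0.0876 to 0.118 for miR-29a, -0.0197 to 0.0498 for miR-29b, -0.0456 to 0.0502 for miR-29c, 0.0818 to 0.138 for miR-26a and -0.0179 to 0.0183 for miR-26b. miR-29b was below 0 without good performers replicate 1 (-0.0197) and without poor performers replicate 2 (-0.0162), miR-29c without poor performers replicate 2 (-0.0456), and miR-26b without good performers replicate 2 (-0.0019) and without poor performers replicate 2 (-0.0179). The cause was not tested. Signal over background limits miR-26b and miR-29c*.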

Other observations

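The 3 spots of miR-29a, miR-29b and miR-26a differed within each array by a pattern that recurred at least in part between arrays. The order of the miR-26b spots was the same on the second good-performer array and the first poor-performer array, and differed on the other arrays. On each array the spots of miR-29a had a coefficient of variation of 11.7% to 16.1%, those of miR-29b of 7.83% to 11.4% and those of miR-26a of 5.27% to 8.25%, with the third spot of miR-29a and of miR-29b the brightest on all 4 arrays. Spot by spot, the raw log2 ratio of good over poor performers was 0.16, 0.15 and 0.10 for miR-29a, 0.10, 0.17 and 0.14 for miR-29b and 0.20, 0.14 and 0.16 for miR-26a. Those of miR-29c were 0.08, 0.02 and 0.09, and those of miR-26b 0.05, 0.00034 and 0.03. Spots of a probe share an array and are not replicates of a group.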
